A study of Mus musculus with 12 samples.

Results

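A set of 10 genes that connective tissue cells use to build the non-collagen part of the matrix were followed through the skeletal muscle of mice fed chow or a high-fat diet. They were taken as a list of symbols: the microfibril genes Fbn1 and Mfap5, the cross-linking enzyme Lox, the collagen-binding genes Dcn, Lum and Dpt, the adhesive and matricellular genes Fn1, Sparc and Postn, and the receptor gene Pdgfra. All 10 were present in both deposited count tables, out of 21976 genes that the tables share and 26570 in either. All 10 also passed the expression filter in every comparison, so none was lost to low counts. The C57BL/6N mice gave 12 RNA sequencing libraries from muscle pieces, in 4 groups of 3. The Chow group ate regular chow and was not injected. The HFD group ate a high-fat diet and was not injected. The Vehicle group ate the high-fat diet and was injected with vehicle, corn oil with 30% DMSO, and the PCN group ate the high-fat diet and was injected with 50 mg/kg PCN. Injections were intraperitoneal, once daily for 4 days, and the diets ran for 18 weeks from an age of 6 weeks. PCN (pregnenolone carbonitrile) is a steroid that activates the pregnane X receptor of rodents. The comparisons address what the diet, the injections and PCN changed in muscle. The sources used here do not name the muscle, and do not say that each library is a separate mouse, so p-values measure the spread between these libraries.

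Fibroblasts and fibro-adipogenic progenitors, the resident mesenchymal cells of muscle, lie between the fibres and secrete most of the interstitial matrix. Fibrillin-1, the product of Fbn1, polymerises into microfibrils that Mfap5 decorates, and these microfibrils scaffold elastic fibres and bind latent TGF-beta complexes. Decorin (Dcn) and lumican (Lum) are small leucine-rich proteoglycans that bind collagen fibrils, and dermatopontin (Dpt) binds decorin and collagen. Lox makes the aldehydes that cross-link collagen and elastin, fibronectin (Fn1) forms the fibrils on which cells adhere, and Sparc and periostin (Postn) are secreted proteins that bind collagen and are made in growing or remodelling tissue. Pdgfra, a receptor tyrosine kinase for platelet-derived growth factors, marks the fibro-adipogenic progenitors of muscle. In a bulk sample, fewer cells of a type and less RNA per cell cannot be told apart.

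The libraries held 12770308 to 19739226 counts, and the 10 genes together took 0.0441% to 0.0945% of them. Defining genes of skeletal muscle were abundant in every library, with Acta1 (skeletal actin) at 9480 to 17700 CPM, the count scaled to library size, and Ckm (muscle creatine kinase) at 11400 to 23600 CPM. Here CPM is always scaled by TMM factors computed over all 12 libraries. Libraries of 1 group differed in what else the piece held. Adipoq (adiponectin, made by adipocytes) ran from 0.906 CPM in Chow 19 to 48.7 CPM in HFD 38. The slow-fibre genes Casq2 and Tpm3 summed to 118 and 113 CPM in Chow 17 and Chow 19 and to 137 CPM in PCN 5. In the other 9 libraries the sum was 16.4 to 66.2 CPM. Of 10 listed slow-fibre genes, 9 were in the deposited table of HFD and Chow. Only these 2 were also in that of PCN and Vehicle, so slow-fibre content was followed less fully there. HFD 38 was the highest of the 12 libraries for 7 of the 10 genes, Chow 8 for 2 and Chow 17 for 1. PCN 27 was the lowest for 4 and PCN 5 for 3. The part these libraries play in a result was tested only by leaving them out. The Chow and HFD libraries are in 1 deposited table and the Vehicle and PCN libraries in the other, so injection and deposited table cannot be told apart.

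On GRCm38, in the coordinates of the deposited tables, Fbn1 (ENSMUSG00000027204) lay at chr2:125300594-125507993 on the minus strand and Mfap5 (ENSMUSG00000030116) at chr6:122505845-122529290 on the plus strand. The neighbours Dcn (ENSMUSG00000019929, chr10:97479609-97518143) and Lum (ENSMUSG00000036446, chr10:97565128-97572703) followed each other on the plus strand. Dpt (ENSMUSG00000026574) lay at chr1:164796644-164824266 on the plus strand and Fn1 (ENSMUSG00000026193) at chr1:71585520-71653200 on the minus strand. Sparc (ENSMUSG00000018593) lay at chr11:55394500-55423183 on the minus strand, Postn (ENSMUSG00000027750) at chr3:54361109-54391037 and Pdgfra (ENSMUSG00000029231) at chr5:75152292-75198215, both on the plus strand. Coordinates of Lox (ENSMUSG00000024529) differed between the tables and the GENCODE M21 annotation and are not given here. Exons of Fbn1, Fn1, Pdgfra and Lox overlap small or antisense gene models. No such model that was counted held more than 3 reads in any library. Whether the overlap took reads from these genes cannot be told from such counts.

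Promoter sequences were given in RefSeq's GRCm38.p6 table for 5 of the 10 genes, each 250 bases before to 50 after an annotated start. The 3 shown belong to Fbn1 and Postn, which carry the calls below, and to Dpt, the gene with the lowest p for PCN against Vehicle. Capitals mark matches to 5 searched motifs, read on both strands: TATAAA for the TATA box, CCAAT for the CCAAT box, GGGCGG for the GC box of Sp factors, TGANTCA for AP-1 and CAGAC for Smad proteins. The sequences read 5′ to 3′ on the strand of the gene, at chr2:125506389-125506688 (minus) for Fbn1, chr3:54360857-54361156 (plus) for Postn and chr1:164796413-164796712 (plus) for Dpt.
Fbn1: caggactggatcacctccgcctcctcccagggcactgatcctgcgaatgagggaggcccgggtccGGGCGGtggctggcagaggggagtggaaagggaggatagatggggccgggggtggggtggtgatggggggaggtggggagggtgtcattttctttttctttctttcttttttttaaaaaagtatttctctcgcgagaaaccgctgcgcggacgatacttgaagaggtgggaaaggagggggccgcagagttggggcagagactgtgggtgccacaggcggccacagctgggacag
Postn: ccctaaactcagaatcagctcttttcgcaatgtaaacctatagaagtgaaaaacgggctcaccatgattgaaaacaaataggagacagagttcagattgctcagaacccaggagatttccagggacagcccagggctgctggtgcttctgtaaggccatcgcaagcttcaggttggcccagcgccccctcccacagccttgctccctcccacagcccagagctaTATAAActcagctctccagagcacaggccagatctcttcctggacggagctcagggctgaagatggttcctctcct
Dpt: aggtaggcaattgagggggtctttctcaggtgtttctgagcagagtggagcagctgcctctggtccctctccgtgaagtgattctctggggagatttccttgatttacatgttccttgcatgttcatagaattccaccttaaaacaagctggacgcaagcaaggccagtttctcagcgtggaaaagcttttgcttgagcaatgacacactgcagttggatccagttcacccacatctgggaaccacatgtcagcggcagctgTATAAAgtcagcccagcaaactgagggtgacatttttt
Postn and Dpt each held 1 TATAAA, a match found in 13.6% of the 32851 promoters of the table. It began 26 bases before the start in Postn and 12 bases after it in Dpt, so the pair differ in position. Another annotated Postn start, 1842 bases from the gene start of the count table, had a promoter with 1 CAGAC and 1 CCAAT and no TATAAA, which is not shown. Fbn1 held 1 GGGCGG, found in 35.7% of promoters, and none of the other 4 motifs in this window. The Fbn1 start used by RefSeq lies 1555 bases inside the gene end of the count table, while the Postn and Dpt starts lie 2 and 19 bases from theirs. The promoters of Pdgfra and Sparc held CAGAC 1 and 2 times, a match present in 49.6% of promoters. A match describes these letters and no binding.

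Per kilobase of exon, the 10 genes spanned a wide range of levels over the 12 libraries. Dcn was the most abundant at 38.3 CPM per kb, followed by Sparc at 24.0, Dpt at 13.7, Fn1 at 7.66 and Fbn1 at 6.28 CPM per kb. Lum (3.95), Lox (3.82) and Pdgfra (3.40 CPM per kb) lay close together, and Mfap5 (1.82) and Postn (0.771 CPM per kb) were the lowest. Over libraries Postn varied most, 19.2-fold from 1.35 to 25.9 CPM, and Dcn and Pdgfra least, 2.52-fold and 2.54-fold.

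**Figure D1:**
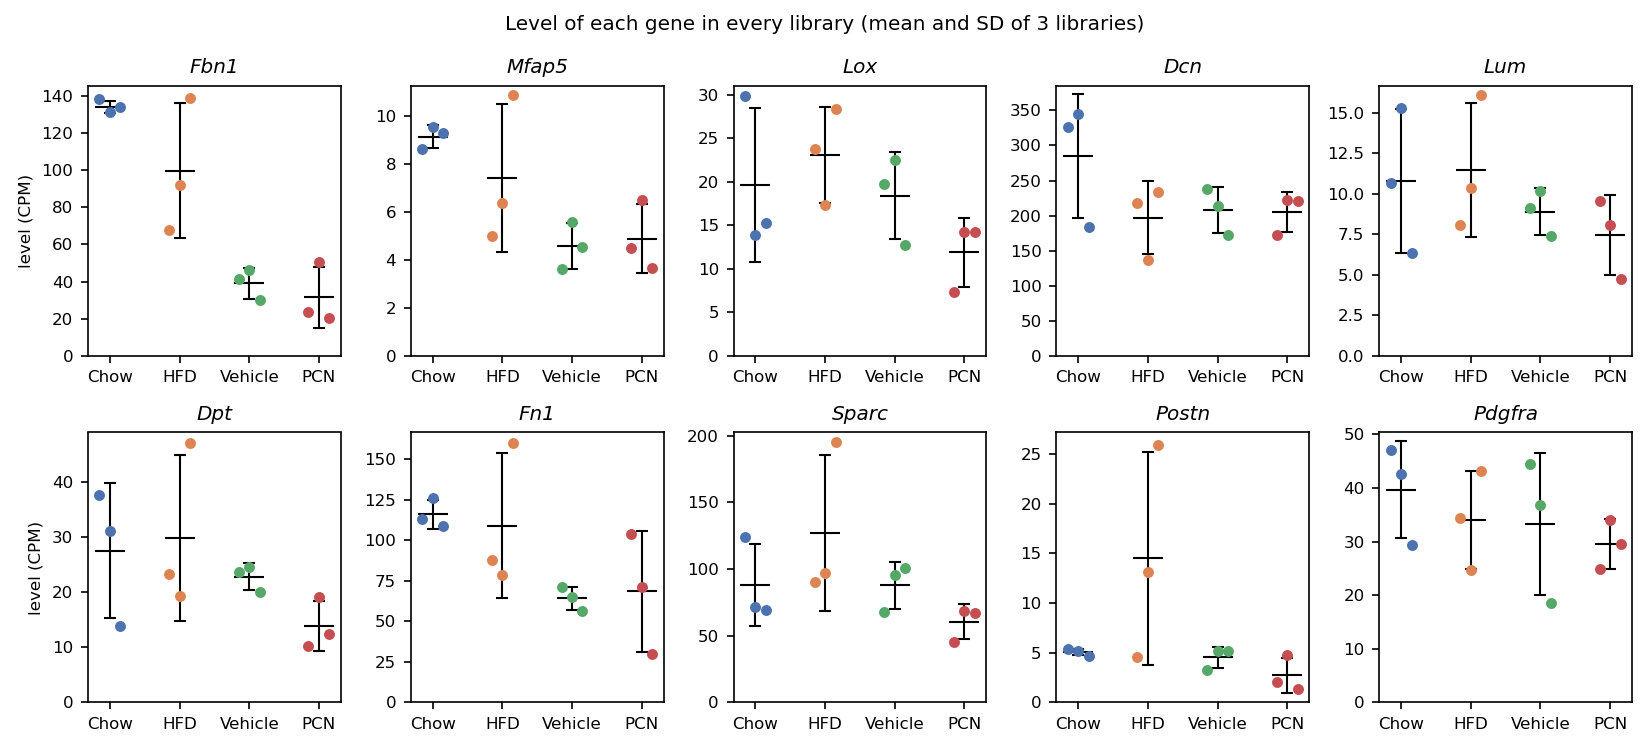
Level of each of the 10 genes in CPM (y axis, from 0) by group (x axis). Points are single libraries, and bars are the mean and SD of 3. Fbn1 is at 131 to 138 CPM in Chow and at or below 50.5 CPM in all 6 injected libraries, while Dcn and Pdgfra overlap between all groups.

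Fbn1 had the lowest p of the 10 genes over the 4 groups, although Postn spanned a wider range of levels. It was at 134 ± 3.21 CPM in Chow (SD, n = 3), 99.6 ± 36.4 in HFD, 39.1 ± 8.23 in Vehicle and 31.5 ± 16.5 in PCN. Across the 4 groups it was the only one of the 10 past edgeR's threshold (an adjusted p under 0.05), at an F of 18.3 and an adjusted p of 0.0484. In that test 24 of 13375 genes passed, or 0.179%. DESeq2 called Fbn1 (adjusted p = 6.69e-09), Postn (0.000438) and Mfap5 (0.0424), against 5.52% of all genes.

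The single values show where the step lay. Chow 8, 17 and 19 had 138, 131 and 134 CPM of Fbn1, and HFD 4, 30 and 38 had 67.6, 92.1 and 139 CPM. Vehicle 15, 23 and 55 had 41.2, 46.0 and 30.0 CPM, and PCN 5, 11 and 27 had 23.5, 50.5 and 20.4 CPM. Every injected library was below every uninjected one, and Vehicle and PCN overlapped. Of the 10 genes only Fbn1 was separated in this way, as were 146 of 13375 genes (1.09%). The call was close to the threshold: edgeR's adjusted p was 0.0524 with DESeq2 size factors and 0.0536 with a filter of mean 1 CPM. It remained in 2 of 12 fits that left out 1 library (without Chow 19, 0.0418, and without PCN 11, 0.00104), and leaving out any of the other 10 ended it, with adjusted p up to 0.119 without HFD 30.

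Mfap5, which encodes a small glycoprotein of the same microfibrils, moved most like Fbn1. The correlation of their log2 levels over the 12 libraries, given as a description, was r = 0.90, the highest of the 45 pairs among the 10 genes. Chow 8, 17 and 19 had 8.63, 9.56 and 9.29 CPM, HFD 4, 30 and 38 had 5.01, 6.37 and 10.9 CPM. Vehicle 15, 23 and 55 had 3.65, 5.59 and 4.56 CPM, and PCN 5, 11 and 27 had 4.52, 6.50 and 3.67 CPM. All Chow libraries were above all injected ones, while HFD 4 and HFD 30 lay within the injected range. Mfap5 did not pass over 4 groups (edgeR's adjusted p = 0.155). Fbn1 was the steeper of the pair. Its CPM, not divided by exon length, was 13.7 to 16.0 times that of Mfap5 in Chow and 12.7 to 14.5 times in HFD. In Vehicle it was 6.58 to 11.3 times and in PCN 5.20 to 7.77 times.

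Dcn and Pdgfra, both used to recognise muscle fibroblasts, had overlapping values in all 4 groups. Dcn was at 285 ± 87.9 CPM in Chow, 197 ± 52.0 in HFD, 208 ± 33.3 in Vehicle and 205 ± 28.1 in PCN (SD, n = 3), with edgeR's adjusted p of 0.490 over 4 groups. Pdgfra was at 39.7 ± 9.12, 34.0 ± 9.19, 33.3 ± 13.3 and 29.5 ± 4.65 CPM in the same order, with 0.812. Dpt, Lum, Pi16 and Dpp4 were also listed as fibroblast markers. In PCN against HFD, a pair chosen after the data were seen, Dpt was at -1.11 ± 0.40 and Lum at -0.65 ± 0.34. Pi16 was at -0.19 ± 0.52 and Dpp4 at 0.27 ± 0.27 (log2 fold change ± SE), and none of these passed edgeR's threshold. Within libraries, Dcn was 5.35 to 9.29 times Pdgfra throughout, and the pair correlated at r = 0.81 over 12 libraries. Set against Dcn, Fbn1 stood at 0.381 to 0.726 in Chow and 0.310 to 0.671 in HFD, and at 0.174 to 0.215 in Vehicle and 0.0924 to 0.227 in PCN. These ratios of CPM, not divided by exon length, were chosen after the values were seen and carry no test. Every injected library was below every uninjected one in Fbn1 over Dcn. Fbn1 alone had this separation and Dcn overlapped between groups, so the ratio is no further support.

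**Figure D2:**
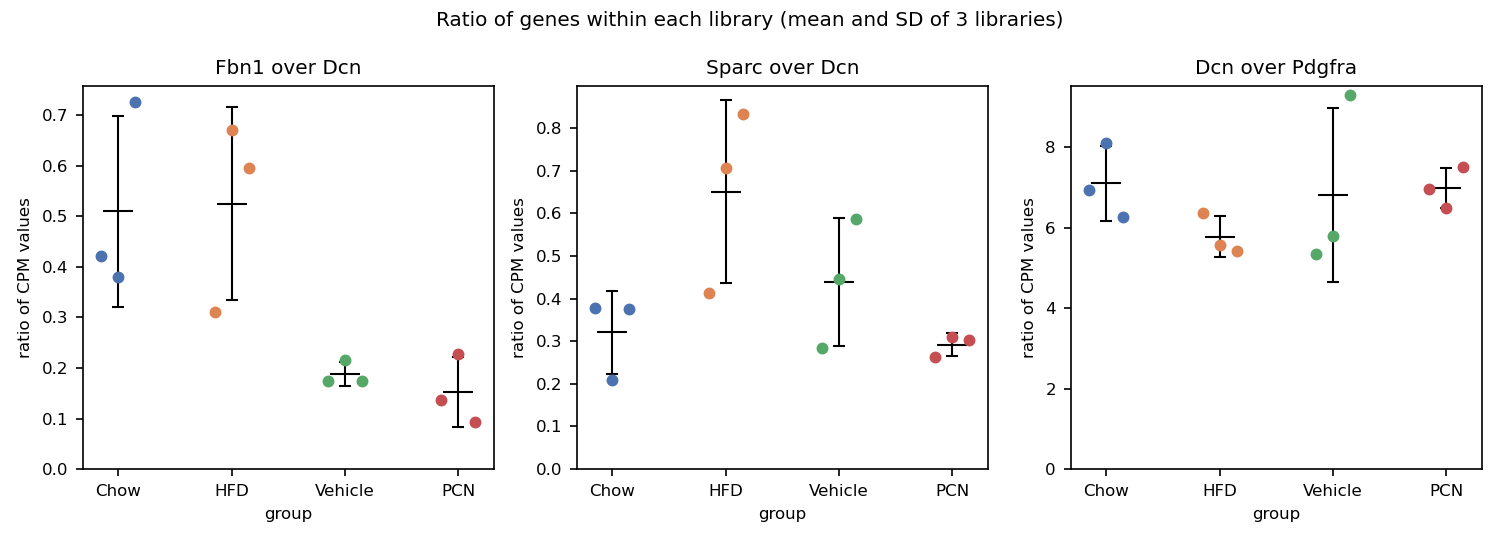
Ratio of CPM values of gene pairs within each library (y axis, from 0) by group (x axis), with the mean and SD of 3 libraries. Fbn1 over Dcn is at most 0.227 in the 6 injected libraries and at least 0.310 in the 6 others, Sparc over Dcn is highest in HFD 38 at 0.833, and Dcn over Pdgfra overlaps between all groups.

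The first pairwise question was what the diet alone did. Between HFD and Chow 0 of the 10 genes and 0 of 12686 genes (0.0%) passed edgeR's threshold, and DESeq2 called 0 of the 10 and 0.339% of all genes. At an unadjusted p under 0.05 there was 1 of the 10, Postn, which is close to the share of 7.7% of all genes. In HFD 5 were fitted higher and 5 lower (49.9% of all genes were lower), with a median log2 fold change of 0.03 against 0.00 for all genes. None of the 10 had groups that did not overlap, a pattern of 12.8% of genes.

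Postn, a collagen-binding protein that activated fibroblasts secrete, was the widest of these differences. Chow 8, 17 and 19 had 5.37, 5.13 and 4.70 CPM, and HFD 4, 30 and 38 had 4.61, 13.1 and 25.9 CPM. HFD 4 was just below the Chow range and the 2 other HFD libraries above it. The log2 fold change was 1.56 ± 0.59 (SE), with edgeR's adjusted p at 0.638, and it was 0.83 without HFD 38. Sparc followed at 0.55 ± 0.36, again through HFD 38, since it was 0.10 without that library. Its levels were 124, 71.8 and 69.3 CPM in Chow 8, 17 and 19 and 90.5, 97.1 and 195 CPM in HFD 4, 30 and 38, so the groups overlapped.

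On the lower side of the diet comparison stood Dcn, at -0.52 ± 0.27 with edgeR's adjusted p = 0.666, Fbn1 at -0.41 ± 0.23 and Mfap5 at -0.27 ± 0.26. Chow 8, 17 and 19 had 326, 345 and 184 CPM of Dcn, and HFD 4, 30 and 38 had 218, 137 and 234 CPM. Chow 19 fell inside the HFD range. Dpt, Lum, Lox, Fn1 and Pdgfra had log2 fold changes from -0.20 to 0.26, each smaller than its SE. Other cell markers moved with the same libraries. In HFD 38 Adipoq was at 48.7 CPM against 11.2 and 13.9 in HFD 4 and 30. The macrophage markers, 11 of 13 of which were fitted higher in HFD, summed to 170 CPM in HFD 38 against 93.5 and 65.1 CPM. The slow-fibre genes were fitted lower for 9 of 9 tested, with a median of -4.44. Without Chow 17 and Chow 19, the 2 Chow libraries high in slow-fibre genes, Dpt was at -0.32 and Lox at -0.36 in place of 0.15 and 0.26.

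**Figure D3:**
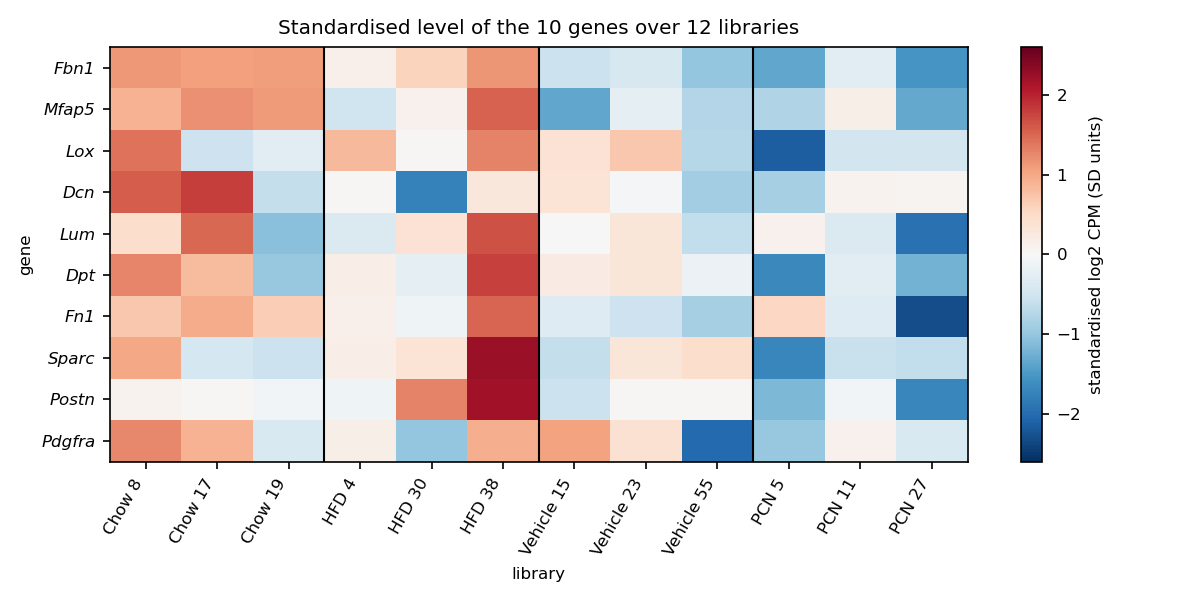
Standardised log2 CPM (colour, in SD units over the 12 libraries) of the 10 genes (rows) in each library (columns, black lines between groups). HFD 38 is the highest library for 7 genes, and PCN 27 and PCN 5 are the lowest for 4 and 3.

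The next comparison set HFD mice injected with vehicle against HFD mice that were not injected. None of the 10 genes passed edgeR's threshold (0 of 10), where 193 of 12746 genes did (1.51%), 67 higher and 126 lower in Vehicle. At an unadjusted p under 0.05 there were 4 of 10, Fbn1, Fn1, Postn and Mfap5, all lower, against 17.8% of all genes. DESeq2 called Fbn1 and Fn1, against 7.87% of the 7804 genes to which it gave an adjusted p. Of the 10, 9 were fitted lower (50.1% of all genes), with a median log2 fold change of -0.47 against 0.00 for all genes. Tendon markers were fitted lower for 5 of 6 tested (median -0.81), with sums of 66.2 to 120 CPM in HFD and 48.0 to 57.1 in Vehicle. The tendon-defining gene Scx was at 1.13 to 1.89 CPM in HFD and 1.03 to 4.5 CPM in Vehicle. Macrophage markers were lower for 10 of 13 (median -0.28), with sums of 65.1 to 170 and 65.9 to 122 CPM, and adipocyte markers for 10 of 17 (median -0.12), with sums of 2040 to 3490 and 1870 to 3650 CPM. The part of these cells in the difference was not tested.

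Fbn1 was 0.392 times its HFD level in Vehicle, a log2 fold change of -1.35 ± 0.28 (SE). Its adjusted p was 0.0621 by edgeR and 2.06e-05 by DESeq2. Leaving out single libraries kept the log2 fold change between -1.56 and -1.03, and without HFD 38 it was -1.03. Fn1 was next among genes with separated groups: HFD 4, 30 and 38 had 88.0, 78.7 and 160 CPM and Vehicle 15, 23 and 55 had 71.0, 65.0 and 56.5 CPM. Its log2 fold change was -0.77 ± 0.26, with an adjusted p of 0.182 by edgeR and 0.0308 by DESeq2, and it was -0.38 without HFD 38. Fbn1 and Fn1 were the 2 of 10 whose Vehicle libraries all lay below all HFD libraries, as did those of 11.3% of genes. Chow was also high for Fn1, at 113, 126 and 109 CPM, while PCN 5, 11 and 27 were at 104, 71.5 and 29.9 CPM. PCN therefore overlapped the HFD and the Vehicle libraries for this gene, and not the Chow libraries.

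The HFD to Vehicle difference of Postn was larger and less certain, at -1.69 ± 0.63 with edgeR's adjusted p = 0.251, and it was -0.97 without HFD 38. Vehicle 15, 23 and 55 had 3.30, 5.15 and 5.15 CPM, which covers the value of HFD 4. Mfap5 was at -0.71 ± 0.29 with an adjusted p of 0.247 by edgeR. Sparc (-0.54 ± 0.32), Dpt (-0.40 ± 0.33), Lum (-0.38 ± 0.25) and Lox (-0.34 ± 0.24) had overlapping groups, and without HFD 38 Sparc was at -0.09 and Dpt at 0.10. Dcn at 0.08 ± 0.21 and Pdgfra at -0.04 ± 0.35 were the 2 closest to 0.

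Transcript length moved with this comparison. Across genes, the Spearman correlation of exonic length with the log2 fold change of Vehicle against HFD was -0.313, and that of HFD against Chow was 0.257. Genes are not independent replicates, and the value is a description. Among the longest 2548 genes, 1 of 5 equal groups by length (median 10.1 kb), to which Fbn1, Fn1, Postn and Pdgfra belong, the median log2 fold change was -0.15. Fbn1 was at -1.35, a value that 0.667% of those genes had or were under, and Pdgfra was at -0.04. The part of length in these differences was not tested.

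The third comparison concerned PCN itself, since Vehicle and PCN share diet, injections and deposited table. Again 0 of 10 genes and 0 of 12833 genes (0.0%) passed edgeR's threshold, and DESeq2 called 0 of 10 and 0.0% of genes. At an unadjusted p under 0.05 there were 2 of 10, Dpt and Sparc, against 2.82% of all genes. Of the 10, 8 were fitted lower in PCN (47.7% of all genes), with a median log2 fold change of -0.29 against 0.01 for all genes. Dpt was the only one of the 10 whose PCN libraries all lay below all Vehicle libraries, which held for 4.19% of genes.

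Dpt, the dermatopontin gene, had 23.7, 24.7 and 20.1 CPM in Vehicle 15, 23 and 55 and 10.3, 19.1 and 12.5 CPM in PCN 5, 11 and 27. The highest PCN library was just under the lowest Vehicle library. The log2 fold change was -0.71 ± 0.23, with edgeR's adjusted p at 0.998, and it stayed between -1.0 and -0.54 when single libraries were left out. In Chow 8, 17 and 19 Dpt was at 37.8, 31.1 and 13.9 CPM and in HFD 4, 30 and 38 at 23.3, 19.3 and 47.2 CPM, so the PCN range reached into that of Chow. Sparc, a collagen-binding matricellular protein, had 67.8, 95.5 and 101 CPM in Vehicle 15, 23 and 55 and 45.2, 68.8 and 67.3 CPM in PCN 5, 11 and 27. PCN 11 lay just above Vehicle 15, and the log2 fold change was -0.54 ± 0.22 with edgeR's adjusted p at 0.998.

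Lox, whose product cross-links collagen and elastin, was at -0.62 ± 0.29, with 19.8, 22.5 and 12.8 CPM in Vehicle 15, 23 and 55 and 7.32, 14.2 and 14.2 CPM in PCN 5, 11 and 27. PCN 5 was the lowest of all 12 libraries, and Vehicle 55 lay below the 2 other PCN libraries. Postn was at -0.76 ± 0.44, with 2.04, 4.73 and 1.35 CPM in PCN 5, 11 and 27. The lowest of these rested on 29 counts, an exact Poisson 95% interval of 0.902 to 1.93 CPM that covers counting error only. Fbn1 was at -0.31 ± 0.35, and at -0.83 without PCN 11. Lum was at -0.26 ± 0.27, Pdgfra at -0.17 ± 0.30, Dcn at -0.01 ± 0.19, Mfap5 at 0.09 ± 0.28 and Fn1 at 0.10 ± 0.40. Fn1 was at -0.43 without PCN 5 and Vehicle 55, the library highest in Casq2 and Tpm3 of each group.

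Markers of adipocytes moved in the same direction as these genes: 14 of 17 were fitted lower in PCN, with a median log2 fold change of -0.88. Adipoq was at 5.5, 24.4 and 25.2 CPM in Vehicle 15, 23 and 55 and at 4.2, 10.2 and 9.47 CPM in PCN 5, 11 and 27. The 17 markers summed to 1870 to 3650 CPM in Vehicle and 1970 to 3620 in PCN. This sum did not follow Adipoq: PCN 5, the lowest of these 6 libraries in Adipoq, had a sum of 3620 CPM. Chow 19 had a sum of 2840 CPM with Adipoq at 0.906 CPM. Tendon markers were fitted lower for 6 of 6 tested, with sums of 48.0 to 57.1 and 33.0 to 41.9 CPM, with the defining genes Mkx and Tnmd at most 0.434 CPM and Scx at 1.03 to 4.5 CPM in these 6 libraries. Macrophage markers summed to 65.9 to 122 CPM in Vehicle and 86.9 to 101 in PCN. The part of adipocyte and tendon tissue in the differences of Dpt, Sparc, Lox and Postn was not tested.

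**Figure D4:**
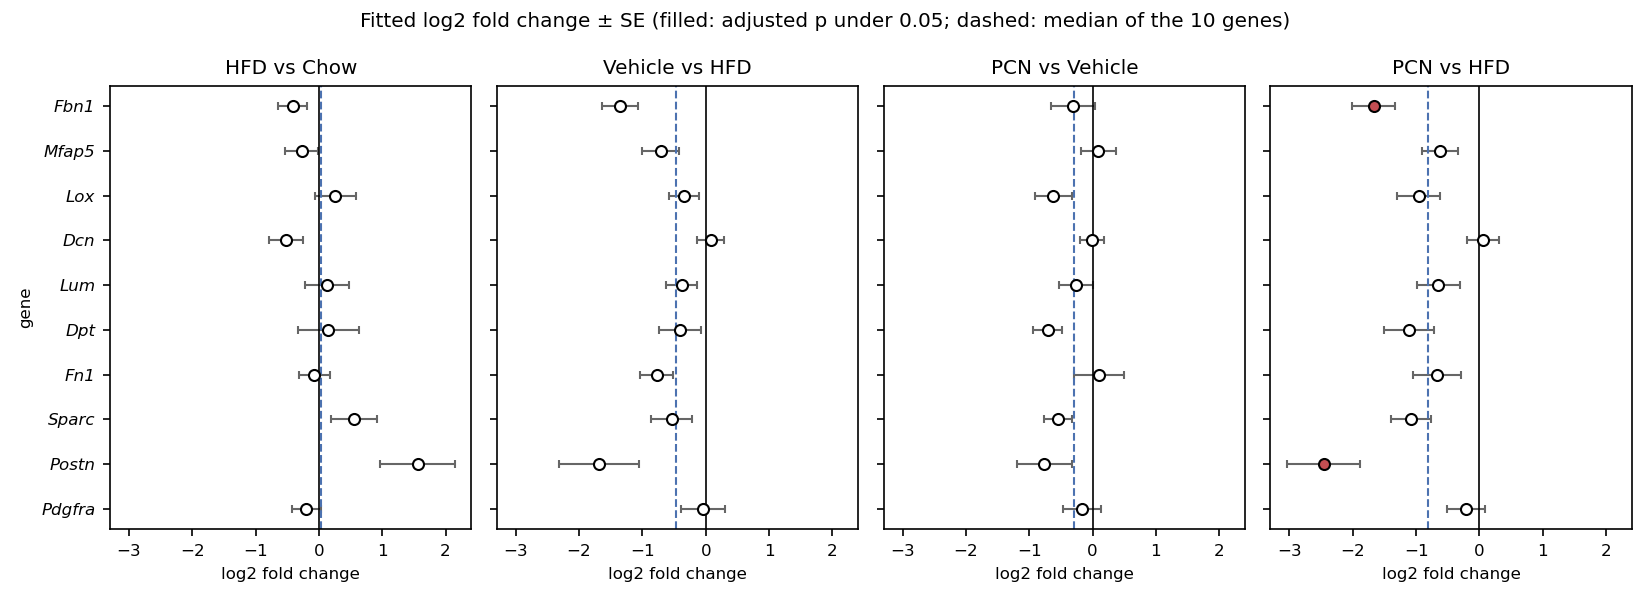
Fitted log2 fold change ± SE (x axis) of the 10 genes (y axis) in 4 comparisons, the first-named group over the second. Filled points passed edgeR's threshold, and dashed lines are the median of the 10. In PCN against HFD Fbn1 at -1.67 and Postn at -2.46 passed, and no gene passed in the other 3 panels.

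The 3 remaining pairs were compared after the data were seen, in a fit of all 12 libraries, and each shares its groups with the comparisons above. PCN and HFD mice differ by both PCN and the injections. Between them Fbn1 and Postn fell past edgeR's threshold, 2 of 10, where 554 of 13375 genes (4.14%) passed. Fbn1 was at -1.67 ± 0.34 with an adjusted p of 0.0261, and Postn at -2.46 ± 0.58 with 0.0414. Sparc (-1.08 ± 0.32, edgeR's adjusted p = 0.0755), Dpt (-1.11 ± 0.40) and Lox (-0.96 ± 0.34) came next and did not pass. Dcn was at 0.06 ± 0.25 and Pdgfra at -0.21 ± 0.30. Beside these genes, tendon markers were fitted lower for 7 of 8, with a median of -1.46 and 4 called (Tnmd, Thbs4, Col12a1 and Col11a1). Their sums did not overlap, at 66.2 to 120 CPM in HFD and 33.0 to 41.9 in PCN. The tendon-defining gene Scx did overlap, at 1.13 to 1.89 CPM in HFD and 1.21 to 2.84 CPM in PCN. Tnmd had at most 22 counts in any library. Adipocyte markers were fitted lower for 14 of 17, with a median of -0.78 and 0 called, and macrophage markers for 10 of 13, with a median of -0.31 and 0 called. Their part in the calls was not tested.

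Fitted on the 6 libraries of PCN and HFD alone, neither gene passed, with edgeR's adjusted p at 0.0779 for Fbn1 and 0.137 for Postn. Of 12 fits that each left out 1 library, Fbn1 passed in 7 and not without HFD 4 (0.0543), HFD 30 (0.0931), HFD 38 (0.0860), PCN 5 (0.0539) or PCN 27 (0.0886). Postn passed in 3, without Chow 19, HFD 4 or PCN 11, and leaving out any of the other 9 ended the call, with edgeR's adjusted p up to 0.134 without PCN 27. Without HFD 38 its log2 fold change was -1.73.

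Between PCN and Chow, which differ in diet as well, Fbn1 was again past the threshold, at -2.10 ± 0.34 with edgeR's adjusted p = 0.0484. It was 1 of 10, where 17 of 13375 genes (0.127%) passed. In the 6 libraries of these groups alone its adjusted p by edgeR was 0.129, and in the fits with 1 library left out it passed in 2 of 12, without HFD 38 or PCN 11. Between Vehicle and Chow 0 of 10 genes passed and 2 of 13375 did (0.015%). Unadjusted, 3 of 10 had a p under 0.05 against 6.72% of genes, and DESeq2 called Fbn1 against 0.366% of the 13114 genes to which it gave an adjusted p. Fbn1 was at -1.78 ± 0.34 there, with edgeR's adjusted p = 0.167 in the 12-library fit and 0.00879 in the 6 libraries alone. Mfap5 was at -0.99 ± 0.28 and Fn1 at -0.86 ± 0.38.

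The other genes of the matrix were followed through lists of related genes. The 11 fibrillar and microfibrillar collagens, the main partners of these proteins, were fitted lower in Vehicle than in HFD for 11 of 11, with a median log2 fold change of -0.99, and Col1a1 and Col5a3 passed edgeR's threshold, 2 of 11 against 1.51% of all genes. That comparison had 0 calls over all genes with the 12 libraries in 1 fit, or without HFD 30 or Vehicle 23. The summed collagen level was 579 to 1130 CPM in HFD and 309 to 404 in Vehicle. In Chow it ran from 536 to 688 CPM, and in PCN from 158 to 401 CPM. Against Chow, all 11 were fitted higher in HFD (median 0.44) and 0 passed, with Col1a1 at 0.61 ± 0.25 and Col5a1 at 0.48 ± 0.21. Against Vehicle, all 11 were fitted lower in PCN (median -0.57) and 0 passed, with Col5a3 at -0.60 ± 0.23 and Col5a2 at -0.57 ± 0.25. For comparison, the medians of the 10 genes in these 3 comparisons were -0.47, 0.03 and -0.29.

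Other genes of elastic fibres and microfibrils were mostly fitted lower in the same comparisons. In Vehicle against HFD 11 of 13 tested were fitted lower, 0 passed and the median was -0.18. In HFD against Chow 10 of 14 were fitted lower with a median of -0.15, and Ltbp3 (which binds latent TGF-beta) was at 0.62 ± 0.22 and Ltbp2 at 0.91 ± 0.45. In PCN against Vehicle 11 of 12 were fitted lower with a median of -0.22, and Efemp1 (fibulin-3) was at -0.45 ± 0.29 and Ltbp4 at -0.34 ± 0.22. None of these passed.

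The other small leucine-rich proteoglycans gave 5 of 7 fitted lower and 0 called in Vehicle against HFD (median -0.27), 5 of 9 and 0 in HFD against Chow (-0.09), and 6 of 8 and 0 in PCN against Vehicle (-0.35). Chad (chondroadherin) was at -1.11 ± 0.56 and Podn (podocan) at 0.32 ± 0.23 in HFD against Chow. Podn at -0.56 ± 0.20 and Prelp at -0.56 ± 0.26 had the lowest p in PCN against Vehicle. Among matricellular and adhesive glycoproteins, 10 of 14, 9 of 14 and 12 of 15 were fitted lower in the same 3 comparisons, with medians of -0.29, -0.08 and -0.16 and 0 called. Vcan (versican) was at -0.49 ± 0.20 and Thbs3 (thrombospondin-3) at -0.61 ± 0.37 in HFD against Chow, and Tnc (tenascin-C) at -0.72 ± 0.36 and Ccn2 (connective tissue growth factor) at -0.53 ± 0.27 in PCN against Vehicle.

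Enzymes that cross-link, process and turn over matrix had 14 of 18 fitted lower in Vehicle against HFD, 11 of 20 in HFD against Chow and 16 of 18 in PCN against Vehicle, with medians of -0.28, -0.03 and -0.25 and 0 called. Loxl3, a relative of Lox, was at 0.57 ± 0.26 in HFD against Chow and -0.54 ± 0.30 in PCN against Vehicle. The gelatinase Mmp9 was at -0.98 ± 0.56 in the former and the prolyl hydroxylase subunit P4ha2 at -0.28 ± 0.19 in the latter. Basement membrane genes were fitted lower for 9 of 10, 4 of 10 and 10 of 10 in the same order of comparisons, with 0 called and medians of -0.29, 0.12 and -0.20. Hspg2 (perlecan) was at 0.37 ± 0.20 in HFD against Chow and -0.53 ± 0.19 in PCN against Vehicle, and Lamb2 at 0.20 ± 0.14 and -0.20 ± 0.15.

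In PCN against HFD, where 4.14% of all genes passed edgeR's threshold, more of these lists held calls, all lower in PCN. This pair was chosen after the data were seen. Its calls over all genes ran from 6 to 912 when 1 library was left out. The called collagens were Col1a1, Col1a2, Col5a1, Col5a2, Col5a3, Col6a2 and Col15a1, 7 of 11, with log2 fold changes from -2.30 ± 0.47 (Col1a1) to -1.30 ± 0.30 (Col5a1). Of matricellular and adhesive genes Thbs1, Tnc, Ccn2 and Vcan were called, 4 of 15, from -1.65 ± 0.36 (Thbs1) to -1.34 ± 0.32 (Vcan). The other lists gave 1 call each for small proteoglycans (Aspn, -0.95 ± 0.24, 1 of 9), matrix enzymes (Pcolce, -0.83 ± 0.20, 1 of 19) and basement membrane (Hspg2, -1.25 ± 0.20, 1 of 10), and 0 of 14 elastic fibre genes. Over 4 groups and in PCN against Chow, Col5a3 was the only gene called besides Fbn1 in the matrix lists.

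Genes that mark the fibroblasts themselves gave 0 calls in every comparison. The share of all genes that edgeR called ran from 0.0% to 4.14%, so 0 of 19 is close to that share. Of 19 fibroblast and fibro-adipogenic progenitor markers tested, 10 were fitted lower in Vehicle than in HFD with a median of -0.05, 15 lower in HFD than in Chow with -0.25, and 12 lower in PCN than in Vehicle with -0.10, and 0 were called. Against Chow, 18 of 19 were fitted lower in Vehicle (median -0.28) and 16 of 19 in PCN (median -0.36), again with 0 called. Against HFD, 14 of 19 were fitted lower in PCN and 5 higher (median -0.11), with 0 called. Their sums ran from 669 to 1060 CPM (Chow), 501 to 928 CPM (HFD), 745 to 1010 CPM (Vehicle) and 555 to 848 CPM (PCN), so all groups overlapped. Cygb at -0.69 ± 0.24 and Ddr2 (a collagen receptor) at -0.36 ± 0.15 had the lowest p for HFD against Chow, and Dpp4 at 0.64 ± 0.32 and Gsn at -0.43 ± 0.26 for PCN against Vehicle. Genes of PDGF and TGF-beta signalling, which act on these cells, had medians of -0.02, 0.00 and -0.02 over 15 tested, in the order Vehicle against HFD, HFD against Chow and PCN against Vehicle, with 0 called. Tgfb3 was at -0.31 ± 0.13 and Pdgfa at -0.29 ± 0.16 in HFD against Chow, and Tgfb1 at -0.62 ± 0.28 and Smad7 at -0.42 ± 0.25 in PCN against Vehicle.

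**Figure D5:**
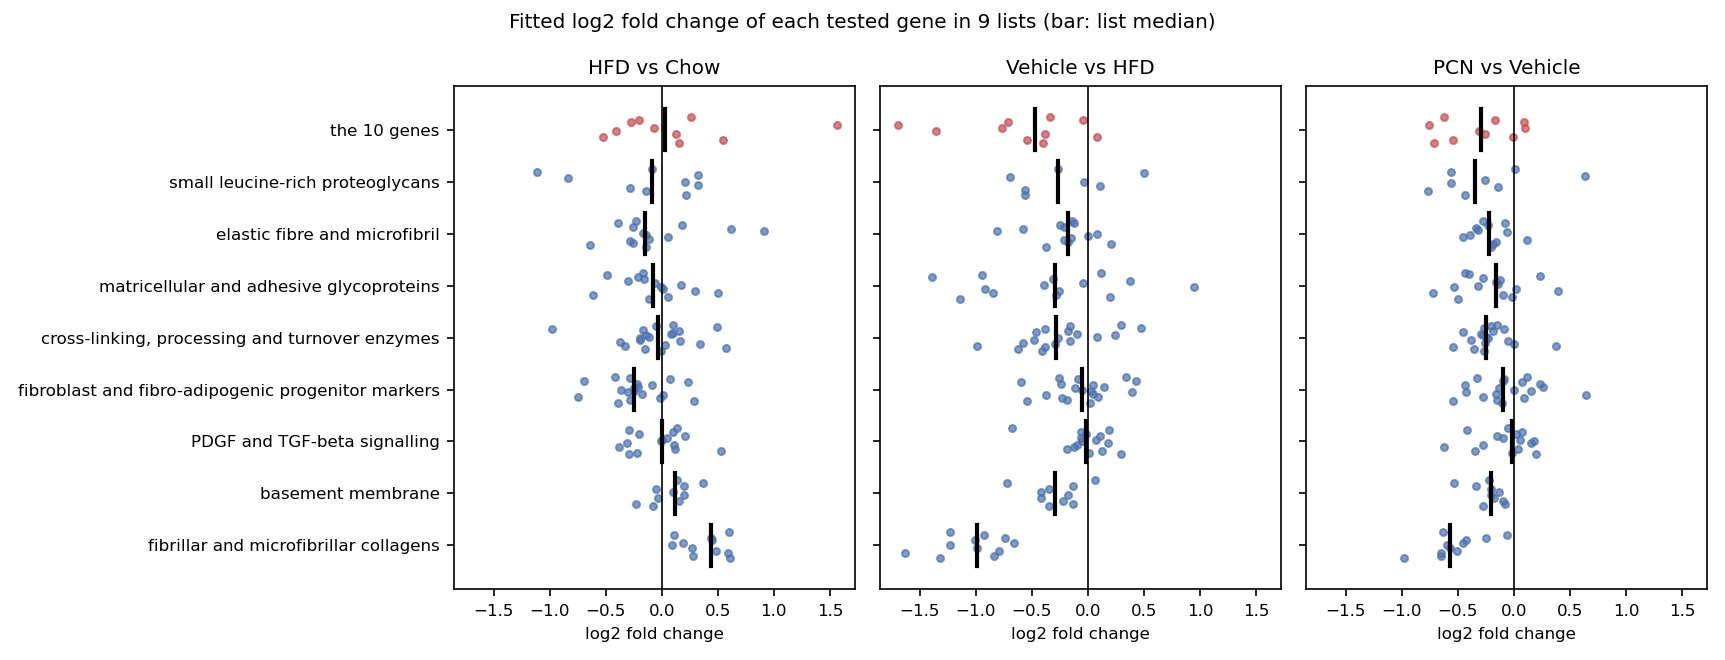
Fitted log2 fold change (x axis) of each tested gene in 9 lists (y axis) for 3 comparisons, with black bars at the list medians. In Vehicle against HFD the 11 collagens lie lowest (median -0.99), the 10 genes have a median of -0.47, and the fibroblast markers centre at -0.05.

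Across the 12 libraries the 10 genes varied together, with 44 of 45 pairs at a correlation above 0 and a median r of 0.57. All pairs share libraries, scaling, injections and deposited tables, and HFD 38 was the highest library for 7 of the 10 genes. The share among other gene pairs was not computed, and these values are descriptions. Dpt followed the mean of the other 9 most closely (r = 0.90) and Dcn least (r = 0.46), and the lowest pair was Dcn with Postn (r = -0.06). Dcn and Sparc, the most abundant pair per kilobase, were nearly unrelated (r = 0.17). In CPM, not divided by exon length, Sparc was 0.208 to 0.379 times Dcn in Chow and 0.414 to 0.833 times in HFD. The same ratio ranged from 0.285 to 0.586 in Vehicle and from 0.262 to 0.310 in PCN. Per kilobase, both genes had a mean of 33.7 CPM in HFD. Among 11646 other genes, those most like the mean standardised level of the 10 over 12 libraries were Nid1 (r = 0.98, rho = 0.90), Lamb1 (0.97, 0.84), Col6a1 (0.96, 0.94), Acss3 (0.94, 0.89), Col6a3 (0.93, 0.92), Col5a2 (0.93, 0.94), Adamts2 (0.93, 0.94) and Loxl2 (0.93, 0.85). Nid1 and Lamb1 encode basement membrane proteins, Col6a1, Col6a3 and Col5a2 collagen chains, Adamts2 a procollagen peptidase and Loxl2 a relative of Lox.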

How the data were processed

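RNA sequencing of muscle pieces gave 12 libraries, 3 in each of 4 groups assigned from the labels. The authors deposited their raw, unnormalised read counts as 2 gene tables of 6 libraries (HFD with Chow, PCN with Vehicle). HISAT2, HTSeq, DESeq2 and the builds GRCm38 and mm10 appear in the submitters' processing notes. Versions, and whether strand was used, remain not given in the sources used here, and without strand, reads of overlapping genes cannot be told apart. The authors' own fold changes and p-values in these tables were not used here.

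Each comparison was fitted on its 6 libraries with edgeR 4.0.16 (R 4.3.3): TMM, filterByExpr with a minimum count of 10, robust quasi-likelihood F test, Benjamini-Hochberg over all genes tested, threshold 0.05. Vehicle against HFD joined the tables on 21976 shared genes. The 4-group test, and 3 pairs added after the data were seen, used all 12 libraries. Printed levels are CPM with TMM factors of all 12 libraries. SE is the absolute log2 fold change over the square root of F. Lengths are united GENCODE M21 exons. Replicates differed far beyond sampling noise (chi-square per gene 21.74 to 120.95).

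The 10 genes, the lists and the choice of comparisons were made with earlier results of these data known. Besides the 10 genes, the text names the 2 genes of lowest p per matrix list in HFD against Chow and in PCN against Vehicle, list genes past the threshold in Vehicle against HFD and PCN against HFD, and the 8 most like the set (mean at least 1 CPM). Alternatives were DESeq2 1.42.0, its size factors, 2 other expression filters, a threshold of 0.1, other sets of libraries, and each library left out. On simulated counts, edgeR recovered 50% of 2-fold and 98% of 4-fold changes for HFD against Chow (12702 genes). It recovered 42% and 100% for PCN against Vehicle (12796 genes) and 54% and 98% for Vehicle against HFD (12739 genes). Over 4 groups it recovered 50% and 100% (13249 genes). Every simulated gene had the same spread between libraries, and only genes above a minimum mean count were changed. These rates do not measure recovery for genes that vary more between libraries, such as Postn.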

Additional observations from a re-analysis of the deposited data

How the results depend on the processing

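Of the results for single genes, 1410 values under an alternative kept their direction and their side of the threshold, 37 changed direction, 14 newly passed and 41 no longer passed. No paired analysis was possible because the groups share no replicate numbers. With 3 libraries a group, changes of 2-fold are often missed. The cause of each change below was not tested.

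With DESeq2, genes called were 43 (HFD vs Chow), 614 (Vehicle vs HFD), 738 (4 groups), 48 (Vehicle vs Chow), 251 (PCN vs Chow) and 1103 (PCN vs HFD), and members of the set called were 2 (Vehicle vs HFD), 3 (4 groups), 1 (Vehicle vs Chow) and 4 (PCN vs HFD). With no expression filter, genes called were 237 (HFD vs Chow), 21 (PCN vs Vehicle), 571 (Vehicle vs HFD), 185 (4 groups), 9 (Vehicle vs Chow) and 48 (PCN vs Chow), and members called 0 (PCN vs Chow) and 1 (PCN vs HFD). With the filter of mean 1 CPM, 13 genes and 0 members were called over 4 groups, and with DESeq2 size factors 0 members. At a threshold of 0.10, genes called were 564 (Vehicle vs HFD), 215 (4 groups), 95 (PCN vs Chow) and 1276 (PCN vs HFD), with 1 member in Vehicle vs HFD. With all 12 libraries in 1 fit, 0 genes were called in Vehicle vs HFD. With the 6 libraries compared alone, genes called were 5 (Vehicle vs Chow) and 1 (PCN vs Chow), and members 1 (Vehicle vs Chow), 0 (PCN vs Chow) and 0 (PCN vs HFD).

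Without single libraries, genes called ran from 0 to 219 (HFD vs Chow, highest without Chow 19), 0 to 1180 (Vehicle vs HFD, highest without Vehicle 55), 3 to 216 (4 groups), 0 to 7 (Vehicle vs Chow), 1 to 196 (PCN vs Chow) and 6 to 912 (PCN vs HFD). Members called ran from 0 to 1 (4 groups, Vehicle vs Chow and PCN vs Chow) and 0 to 2 (PCN vs HFD).

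Directions changed with single libraries left out for small log2 fold changes. In HFD vs Chow, Dpt ran from -0.36 to 0.44, Lum from -0.20 to 0.46 and Fn1 from -0.47 to 0.12. In PCN vs Vehicle, Dcn ran from -0.15 to 0.09, Fn1 from -0.34 to 0.46, Mfap5 from -0.17 to 0.26 and Pdgfra from -0.47 to 0.09. In Vehicle vs HFD, Dpt ran from -0.63 to 0.10, Dcn from -0.12 to 0.22 and Pdgfra from -0.30 to 0.25. In Vehicle vs Chow, Dpt ran from -0.59 to 0.02, Sparc from -0.15 to 0.32, Lum from -0.55 to 0.07, Postn from -0.26 to 0.04, Pdgfra from -0.51 to 0.04 and Lox from -0.29 to 0.33. In PCN vs HFD, Dcn ran from -0.14 to 0.21. Without Chow 17 and Chow 19, chosen after the data were seen, HFD vs Chow gave Dpt -0.32, Lox -0.36 and Chad 0.06. Without PCN 5 and Vehicle 55, also chosen then, PCN vs Vehicle gave Fn1 -0.43. Sparc in Vehicle vs Chow was 0.0 with DESeq2, with its size factors and with no filter.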
